A study of Mus musculus with 10 samples.

Results

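The epithelial ion transport genes described here are 8 genes, Slc9a2, Slc9a3, Slc26a3, Slc26a6, Cftr, Slc12a2, Atp1b1 and Kcnq1. They were taken by gene symbol from the 45707 rows of a table of normalized gene counts, and all 8 were found. RNA was from whole jejunum, with 1 library for each of 5 Vil-Cre mice and 5 Vil-Cre:NDI1 mice. All 10 animals carried the Cre transgene under the Villin promoter, which is active in intestinal epithelial cells. Vil-Cre:NDI1 mice also carried NDI1, a yeast (Saccharomyces cerevisiae) NADH dehydrogenase made of a single subunit, behind a loxP-flanked stop sequence at ROSA26, so that Cre turns it on in the epithelium. The mice were male littermates, 8 to 12 weeks old, which received water by gavage after a fast of 16 to 18 h and were killed 1 h later. The design text states the aim as finding whether NDI1 expression affects the transcriptome, and each comparison below puts this question to the ion transport genes.

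Absorption of sodium chloride in the small intestine pairs sodium-proton exchange with chloride-bicarbonate exchange at the brush border. Slc9a2 and Slc9a3 encode the exchangers NHE2 and NHE3 of the first kind, and Slc26a3 and Slc26a6 encode the anion exchangers DRA and PAT1 of the second. Chloride secretion, which is strongest in the crypts, needs the basolateral sodium-potassium-chloride cotransporter NKCC1 (Slc12a2) to load the cell and the apical channel CFTR (Cftr) to let chloride out. Atp1b1 encodes the beta subunit of the sodium pump, whose gradient drives the other transporters. Kcnq1 encodes a potassium channel through which potassium that entered the cell can leave.

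Each library held between 10145705 and 12371530 reads on genes. The deposited values, called normalized counts here, are these reads after division by the library's size factor. A gene was tested if 5 or more of the mice had a normalized count of 10 or more, which left 14301 genes, 14300 of them mouse genes, and all 8 ion transport genes passed. Genotypes were compared with limma on log2(normalized count + 1), and a gene was called at a Benjamini-Hochberg adjusted p under 0.05. NDI1 had at most 1 read in any Vil-Cre library, and its normalized count was between 982 and 2575 in Vil-Cre:NDI1 mice. It was the 1 gene called. Enterocyte markers were high in every library, and their sum over 10 genes, among them Alpi, Fabp2 and Sis, ran from 348631 to 694654. The ileal enterocyte markers Fabp6 and Slc10a2 together ran from 7.84 to 21.9 in 5 mice and from 235 to 2039 in the other 5, and both genotypes were present in each range. Of the markers of these and 11 other cell types, 0 were called. In whole tissue, fewer cells of a type and less RNA per cell cannot be told apart.

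None of the 8 ion transport genes passed the test for a difference between genotypes. With limma, 0 of 8 were called at an adjusted p under 0.05, beside 0.00699% of all genes tested, and each had an adjusted p of 0.998. At an unadjusted p under 0.05 limma counted 0 of the 8, against 4.23% of all mouse genes tested. The edgeR quasi-likelihood test on the reads behind the values called 0 of the 8, beside 0.00699% of all genes, and had 0 at an unadjusted p under 0.05, beside 4.65% of mouse genes. The DESeq2 Wald test, which called 0.183% of all genes, also called 0 of the 8. At an unadjusted p under 0.05 it had 1 of them, Atp1b1, beside 6.7% of mouse genes. DESeq2 gave Atp1b1 an unadjusted p of 0.0327 (adjusted p = 0.652). The ranges of the 2 genotypes overlapped for all 8, whereas they did not overlap for 0.692% of mouse genes. Fold changes were above 0 on the log2 scale for 4 genes and below 0 for 4, with a median of 0.0031 beside 0.0051 over all mouse genes tested. Slc9a2, Slc26a3, Cftr and Atp1b1 were the 4 above 0. The 95% confidence interval of the fold change lay between a 1.5-fold decrease and a 1.5-fold increase for 7 genes, all except Kcnq1, and within 2-fold for all 8. The corresponding shares of all mouse genes were 53.5% and 79.6%.

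**Figure D1:**
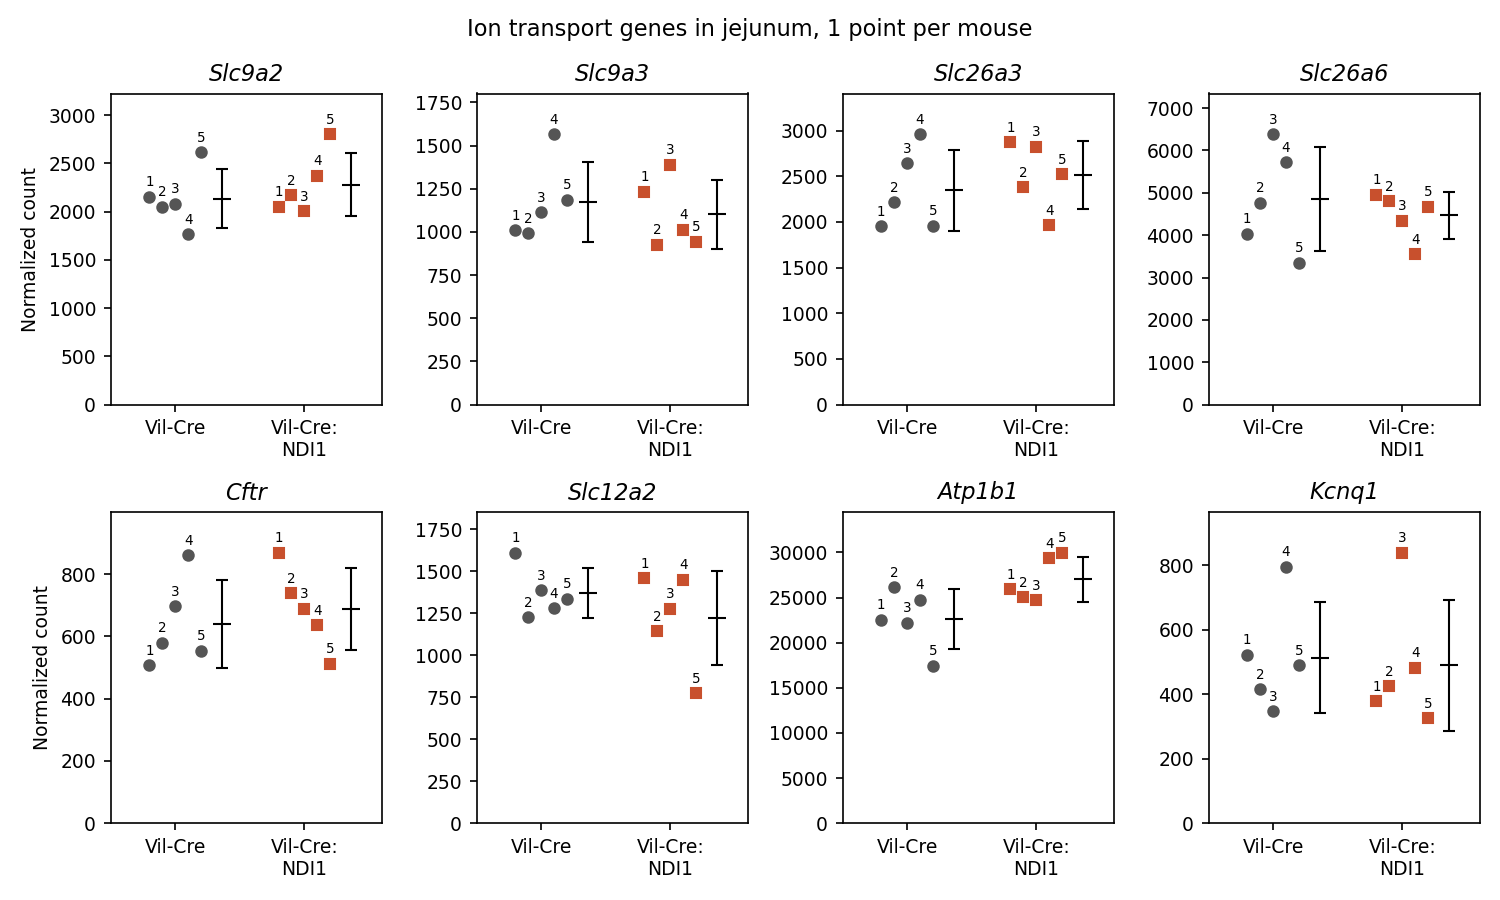
Normalized count (y axis, from 0) of each ion transport gene in each mouse, with Vil-Cre mice as grey circles and Vil-Cre:NDI1 mice as orange squares, numbered by replicate. The bars give the mean and SD of 5 mice. The genotypes overlap in every panel, and for Atp1b1 the overlap rests on Vil-Cre 2 (26148) and Vil-Cre 4 (24775).

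Slc9a2 (ENSMUSG00000026062) lies on the plus strand of chromosome 1, at 40680574 to 40769273 in GRCm38. Its normalized count was 2153, 2052, 2083, 1765 and 2615 in Vil-Cre mice 1 to 5 and 2052, 2172, 2001, 2374 and 2803 in Vil-Cre:NDI1 mice 1 to 5. Mouse 5 was the highest in both genotypes, and the control range enclosed 4 of the 5 NDI1 mice. The means were 2134 ± 307 and 2280.4 ± 326 (SD, n = 5 each). This is a log2 fold change of 0.10 (95% interval −0.17 to 0.36, exact permutation test, two-sided, p = 0.468). It was 0.019 without Vil-Cre:NDI1 5 and 0.17 without Vil-Cre 5.

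Slc9a3 (ENSMUSG00000036123, chromosome 13, 74121457 to 74169442, plus strand) encodes the main sodium-proton exchanger of the brush border. In Vil-Cre mice its normalized count was 1011, 993, 1113, 1566 and 1187, and in Vil-Cre:NDI1 mice it was 1232, 927, 1389, 1014 and 944. Vil-Cre 4 was the highest of all 10 and Vil-Cre:NDI1 2 the lowest. The log2 fold change was −0.09 (95% interval −0.42 to 0.24, exact permutation p = 0.587), and without Vil-Cre 4 it was 0.019 with limma. The genes beside these exchangers gave no call either. Slc9a8, which encodes another exchanger of the family, stood at 399.9 ± 44.1 and 427 ± 67.5 (SD, n = 5 each). Slc9a3r1, which encodes the scaffold NHERF1 that holds NHE3 and CFTR at the brush border, had means of 15941 and 18525 (log2 fold change 0.19, 95% interval −0.16 to 0.54). For the scaffold gene Pdzk1 the means were 4662 and 5013, and Vil-Cre:NDI1 5, at 7068, stood far above the other 4 mice of its genotype (4394 to 4745).

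Slc26a3 (ENSMUSG00000001225, chromosome 12, 31390871 to 31473917, plus strand) had normalized counts of 1953, 2214, 2641, 2962 and 1961 in Vil-Cre mice. In Vil-Cre:NDI1 mice they were 2875, 2378, 2823, 1963 and 2526. Low values of 1953 to 1963 occurred in both genotypes, in Vil-Cre 1 and 5 and in Vil-Cre:NDI1 4. The means of 2346 ± 444 and 2513 ± 370.4 (SD, n = 5 each) gave a log2 fold change of 0.11 (95% interval −0.20 to 0.42, exact permutation p = 0.5), which was 0.045 without Vil-Cre 1 and 0.19 without Vil-Cre 4.

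Slc26a6 (ENSMUSG00000023259, chromosome 9, 108853283 to 108913049, plus strand) was the more variable of the anion exchangers in control mice. Its normalized count was 4032, 4763, 6386, 5719.7 and 3346 in Vil-Cre mice and 4959.9, 4801, 4337, 3549 and 4675 in Vil-Cre:NDI1 mice. Vil-Cre mice held the highest values (3 and 4) as well as the lowest (5), and all NDI1 mice fell between them. The log2 fold change was −0.09 (95% interval −0.46 to 0.28, exact permutation p = 0.635), and it was 0.018 without Vil-Cre 3. Among the genes that supply bicarbonate, the basolateral cotransporter Slc4a4 had means of 1864 ± 142 and 1943 ± 284 (SD, n = 5 each), and the exchanger Slc4a2 had 1163 ± 110.0 and 1228 ± 136. Car4, which encodes a membrane-bound carbonic anhydrase, stood at 2109 ± 717 and 2268 ± 519. The cytosolic carbonic anhydrase gene Car2 was far more variable, at 40.2, 37.2, 244, 366 and 43.7 in Vil-Cre mice and 321, 173, 161, 78.3 and 74 in Vil-Cre:NDI1 mice. Both genotypes held low and high Car2 values, and its log2 fold change of 0.62 had a 95% interval of −0.88 to 2.12.

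Cftr (ENSMUSG00000041301, chromosome 6, 18170687 to 18322768, plus strand) had normalized counts of 507, 580.0, 697, 860.4 and 555 in Vil-Cre mice. The values in Vil-Cre:NDI1 mice were 869, 739.8, 689, 637 and 512. The highest and lowest values of one genotype lay close to those of the other. With means of 639.9 ± 142 and 689 ± 132 (SD, n = 5 each), the log2 fold change was 0.11 (95% interval −0.25 to 0.48, exact permutation p = 0.556). Without Vil-Cre:NDI1 1 it was 0.023, and without Vil-Cre 4 it was 0.23. Of the other chloride channels, Clcn2 had means of 2221 ± 359 and 2543 ± 233 (log2 fold change 0.20, 95% interval −0.04 to 0.45). The calcium-activated channel Ano1 was near 137 in Vil-Cre mice and 139 in Vil-Cre:NDI1 mice. Guca2b, which encodes the peptide uroguanylin, and its receptor Gucy2c act upstream of CFTR, and they had log2 fold changes of 0.23 (95% interval −0.22 to 0.69) and 0.11 (−0.23 to 0.44).

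Slc12a2 (ENSMUSG00000024597, chromosome 18, 57878678 to 57946821, plus strand) had normalized counts of 1611, 1228, 1389, 1279 and 1336 in Vil-Cre mice and 1458, 1143, 1277, 1449 and 775 in Vil-Cre:NDI1 mice. Vil-Cre:NDI1 5 lay apart below the other 9 mice, which spanned 1143 to 1611. The log2 fold change was −0.19 (95% interval −0.55 to 0.16, exact permutation p = 0.365), and it was −0.040 without that mouse. Vil-Cre:NDI1 5 also had the lowest sum of 7 crypt stem and cycling cell markers, 2984. In Vil-Cre mice this sum ran from 3252 to 4501, its highest value in Vil-Cre:NDI1 mice was 5639, and 0 of the 7 markers were called. The part of crypt content in the Slc12a2 value was not tested.

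Atp1b1 (ENSMUSG00000026576, chromosome 1, 164437109 to 164458355, minus strand) came closest to a difference. In Vil-Cre mice its normalized count was 22529, 26148, 22208, 24775 and 17429.5, and in Vil-Cre:NDI1 mice it was 25939, 25045, 24691, 29368 and 29982. The NDI1 mice were all above 3 of the 5 controls, and Vil-Cre 2 exceeded 3 of them. The means of 22618 ± 3325 and 27005 ± 2489 (SD, n = 5 each) differed by 1.20-fold (95% interval 0.993 to 1.45, log2 fold change 0.26, exact permutation p = 0.0556). With limma the unadjusted p was 0.0576 and the adjusted p 0.998. With each mouse left out in turn the log2 fold change was between 0.17 (without Vil-Cre 5) and 0.32 (without Vil-Cre 2), and the unadjusted p from limma between 0.0341 and 0.127. After libraries were rescaled to equal totals, the log2 fold change of Atp1b1 was 0.20 (limma, unadjusted p = 0.0772). Vil-Cre 5 had the lowest sum of enterocyte markers of the 10 mice (348631) as well as the lowest Atp1b1 value. Vil-Cre:NDI1 5 had the highest of both, with a marker sum of 694654. Some other mice did not keep this order, since Vil-Cre 3 had a sum of 589576 with Atp1b1 at 22208. Vil-Cre:NDI1 4 had a sum of 522288 with Atp1b1 at 29368. Vil-Cre mice had sums of 348631 to 589576 and Vil-Cre:NDI1 mice had sums of 522288 to 694654. With limma 0 of its 10 markers were called, and the part of enterocyte content in Atp1b1 was not tested. In the annotation, 575 bp of Atp1b1 exons (18.7% of their length) overlap Nme7 on the opposite strand, and the sources used here do not say whether reads were counted by strand. Nme7 had a mean of 195 normalized counts, against at least 17429.5 for Atp1b1 in every mouse.

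Atp1b3, which encodes another beta subunit of the pump, had normalized counts with means of 363 ± 52.4 in Vil-Cre and 328 ± 25.8 in Vil-Cre:NDI1 mice (SD, n = 5 each), and per kb Atp1b1 was 31.3 to 78.6 times as high. Fxyd3, which encodes a small protein that binds the pump, was low, at 89.8 ± 24.8 and 70.7 ± 20.3.

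Kcnq1 (ENSMUSG00000009545, chromosome 7, 143106362 to 143427042, plus strand) was the most variable of the 8. Its normalized count was 522, 415, 347, 796 and 489 in Vil-Cre mice and 378, 425, 839, 482 and 326 in Vil-Cre:NDI1 mice. A single mouse of each genotype, Vil-Cre 4 and Vil-Cre:NDI1 3, stood above the rest, which spanned 326 to 522. The log2 fold change was −0.09 (95% interval −0.67 to 0.49, exact permutation p = 0.730), and without Vil-Cre 4 it was 0.079. Kcnq1 exons share 121 bp (2.96% of the exon length) with the antisense transcript Kcnq1ot1. That transcript averaged 56.7 normalized counts, against at least 326 for Kcnq1 in every mouse, and its part in the Kcnq1 values was not tested. Kcne3, whose product joins KCNQ1 in intestinal epithelium, had means of 196 ± 49.1 and 209 ± 39.1 (SD, n = 5 each). The ratio of Kcnq1 to Kcne3 per kb ran from 0.707 in Vil-Cre:NDI1 5 to 2.22 in Vil-Cre:NDI1 3. Kcne2, which encodes a partner best known from the stomach, had at most 2 reads in any library and was not tested. The calcium-activated channel Kcnn4 stood at 303 ± 74.0 and 289 ± 42.4.

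**Figure D2:**
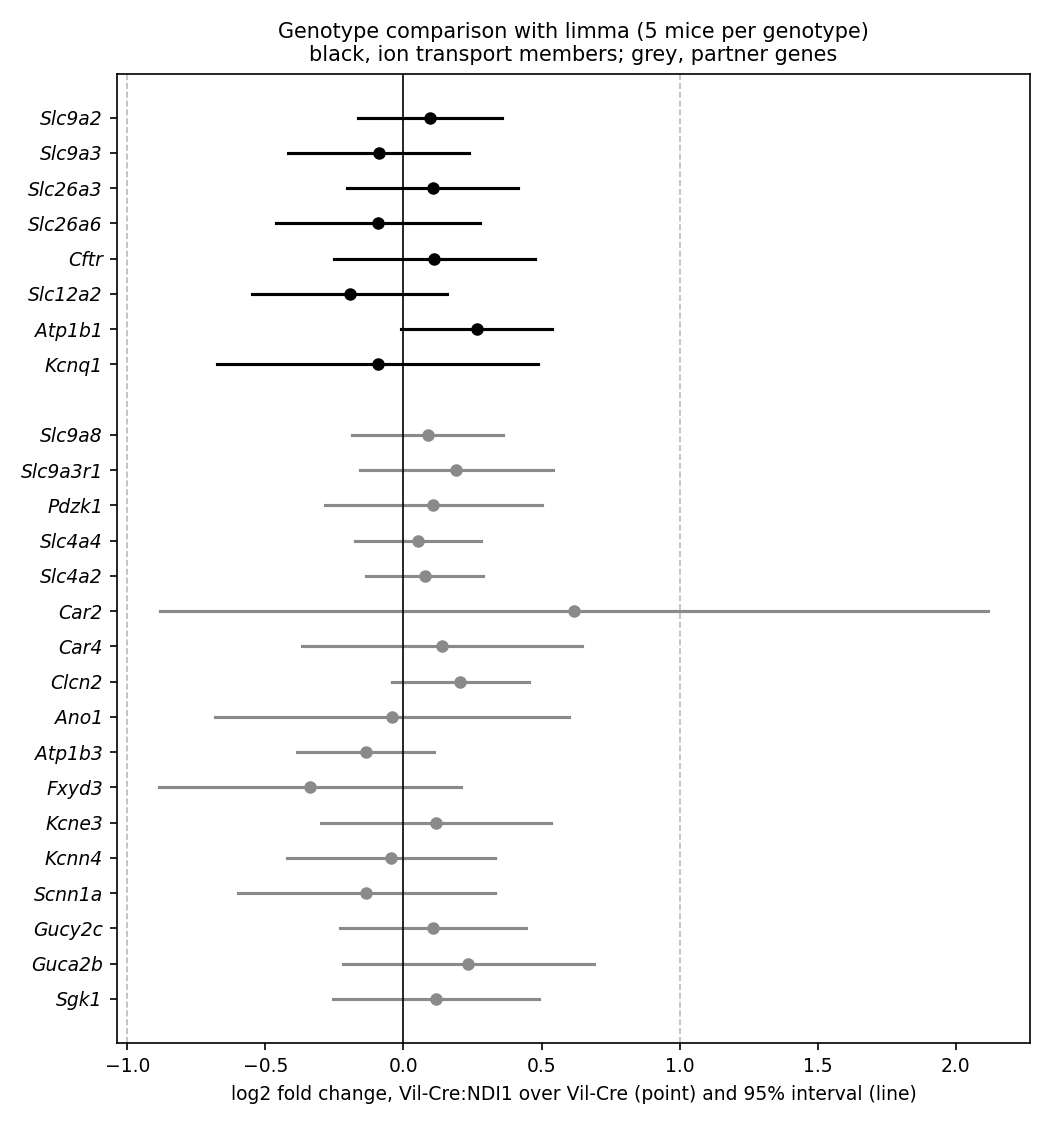
Log2 fold change, Vil-Cre:NDI1 over Vil-Cre (x axis), from limma with 5 mice per genotype, for the 8 ion transport genes in black and partner genes in grey. Points are estimates and lines are 95% confidence intervals. Every line crosses 0, the dashed lines mark 2-fold in either direction, and the interval of Car2 is the widest, from −0.88 to 2.12.

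The same comparison was made for a wider list of 59 further genes of epithelial ion transport and its control, of which 50 passed the filter on low values. The 8 genes described above are not in this list, so its counts by class leave them out. With limma, 0 of the 50 were called and 0 had an unadjusted p under 0.05, and the ranges of the genotypes overlapped for all 50. The log2 fold change was above 0 for 36 and below 0 for 14, with a median of 0.09 beside 0.0051 over all mouse genes, 51.2% of which were above 0. These signs were not recounted after rescaling to equal totals, which moved the median of all mouse genes to −0.06. The part of enterocyte content in them was not tested. All 8 genes of anion exchange and carbonic anhydrases tested from the list had values above 0 (median 0.19). So did 8 of its 9 genes of sodium-proton exchange and its scaffolds (median 0.11). Outside the list, the anion exchangers Slc26a3 and Slc26a6 were at 0.11 and −0.09, and the sodium-proton exchangers Slc9a2 and Slc9a3 at 0.10 and −0.09. Cftr was at 0.11, Atp1b1 at 0.26, Slc12a2 at −0.19 and Kcnq1 at −0.09. The 5 tested chloride channels had 4 above 0 (median 0.20), and the 4 cation-chloride cotransporters had 2 (median −0.03). Of the sodium pump subunits and FXYD genes, 3 of 4 were below 0 (median −0.24). Potassium channels and KCNE subunits were divided, with 3 above and 4 below (median −0.03). Of the 3 epithelial sodium channel genes, Scnn1a alone passed the filter, at 128 ± 35.3 and 114 ± 20.8 (SD, n = 5 each), and Scnn1b had 0 reads in all 10 libraries. In all, 9 genes of the list were below the filter and were not tested, among them Slc26a9, Best2 and Casr. The receptors and kinases of the list, such as the kinase gene Sgk1 with means of 9971 and 10969.9, gave 10 of 12 above 0 (median 0.09). edgeR called 0 genes of the list, beside 0.00699% of all genes. DESeq2 called 0 with all 10 libraries and 3 with the 8 libraries other than Vil-Cre 3 and 4, Car2 (log2 fold change 2.00, adjusted p = 0.00151), Clcn2 (0.36, 0.0135) and Slc12a7 (0.27, 0.0252). In that setting, with 3 Vil-Cre against 5 Vil-Cre:NDI1 mice, DESeq2 called 1.77% of all genes. The libraries left out held the highest (366) and the third highest (244) Car2 values and were the 2 Vil-Cre mice with low ileal sums (11.02 and 12.1). The ileal sums of the 3 controls kept were 235, 886 and 2039, and 3 of the 5 Vil-Cre:NDI1 mice were at 7.84 to 21.9.

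Levels of the 8 genes were compared per kb of exon, using the union of annotated exons. Averaged over the 10 mice, the level was 8053 normalized counts per kb for Atp1b1, 861 for Slc26a6, 381 for Slc26a3 and 316 for Slc9a2. The others followed at 207 for Slc9a3, 123 for Kcnq1, 119 for Slc12a2 and 85.6 for Cftr. Atp1b1 was above 99.5% of the 14255 tested genes with a length, and Cftr above 65.5%. The order of neighbours held in all 10 mice for Atp1b1 over Slc26a6, Slc26a6 over Slc26a3, Slc9a3 over Kcnq1 and Slc12a2 over Cftr. Slc9a2 exceeded Slc9a3 in 9 of 10 mice, the exception being Vil-Cre 4 with a ratio of 0.888, and the ratio was highest in Vil-Cre:NDI1 5 at 2.34. Slc26a3 and Slc9a2 (in that order in 6 of 10 mice) and Kcnq1 and Slc12a2 (3 of 10) could not be ordered beyond their spread with this length. Slc26a6 was 1.81 to 2.85 times as high as Slc26a3 per kb of exon union, but 1.02 to 1.61 times as high when the longest coding transcript of each gene gave the length. With that length Slc26a3 stood above Slc9a2 in all 10 mice (ratio 1.29 to 2.90), and Slc12a2 stood above Kcnq1 in 8 of 10 mice. Slc9a3 then fell below Kcnq1 in Vil-Cre:NDI1 3, while the means of the 10 mice were 222 for Slc9a3 and 166 for Kcnq1.

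**Figure D3:**
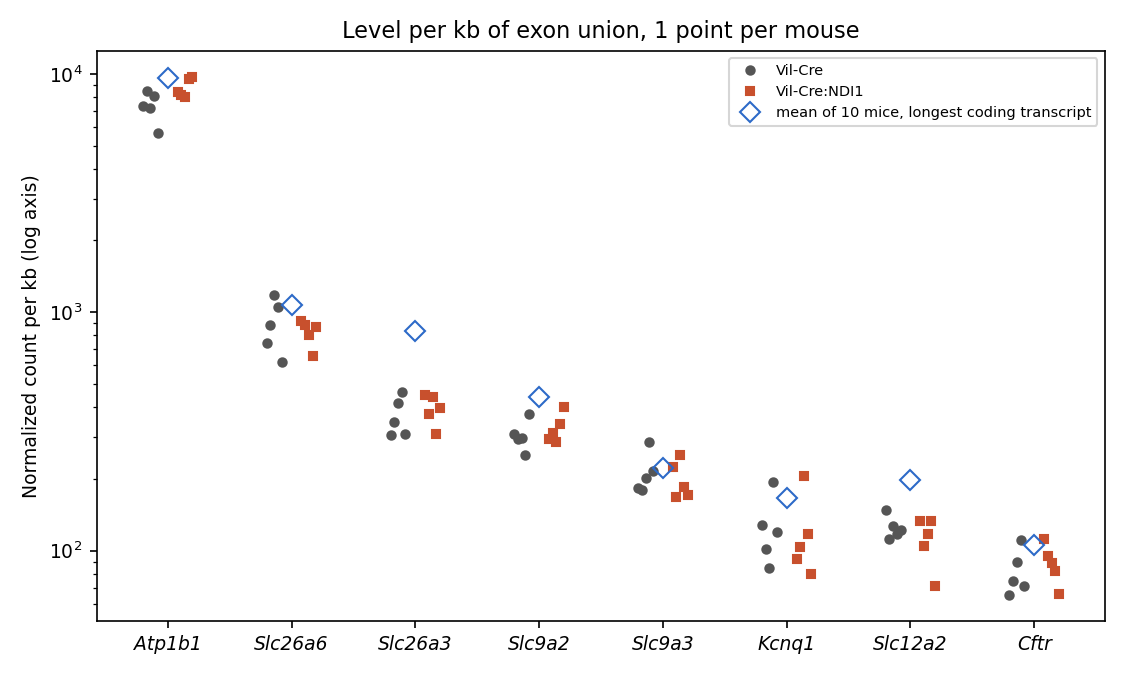
Normalized count per kb of exon union (y axis, log scale) for the 8 genes in order of their mean, 1 point per mouse, with Vil-Cre mice in grey and Vil-Cre:NDI1 mice in orange. Open diamonds give the mean of 10 mice when the longest coding transcript gave the length. Atp1b1 stands about 9.65-fold above Slc26a6, and the diamond of Slc26a3 moves furthest from its points (835 against 381).

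The spread between mice of the same genotype differed among the genes. As the SD of log2(normalized count + 1) within genotype, it was smallest for Atp1b1 (0.18) and Slc9a2 (0.20). Slc26a3, Slc9a3, Slc12a2, Cftr and Slc26a6 lay between 0.25 and 0.30, near the median of 0.29 over all mouse genes tested. Kcnq1 had an SD of 0.49, larger than that of 74.4% of genes.

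The high and low mice were not the same for every gene, and some genes shared theirs. The 5 highest Cftr values (869, 860.4, 739.8, 697 and 689) belonged to Vil-Cre:NDI1 1, Vil-Cre 4, Vil-Cre:NDI1 2, Vil-Cre 3 and Vil-Cre:NDI1 3. These were the 5 mice whose ileal markers summed to 21.9 or less. The 4 highest Slc26a3 values (2962, 2875, 2823 and 2641) and the 5 highest Car2 values (161 to 366) were also among these mice. The share of all genes tested that divide the mice in this way was not computed. The arrangement is therefore not shown to be particular to ion transport genes. Next for Slc26a3 came Vil-Cre:NDI1 5 (2526), whose ileal sum was 420.2, above Vil-Cre:NDI1 2 (2378) with its low ileal sum. The 4 highest Slc26a6 values (6386, 5719.7, 4959.9 and 4801) were in Vil-Cre 3, Vil-Cre 4, Vil-Cre:NDI1 1 and Vil-Cre:NDI1 2. The other mouse with a low ileal sum, Vil-Cre:NDI1 3, had 4337, below Vil-Cre 2 (4763) and Vil-Cre:NDI1 5 (4675). Slc9a2 had the opposite arrangement at its upper end, with its 3 highest values in Vil-Cre:NDI1 5, Vil-Cre 5 and Vil-Cre:NDI1 4, whose ileal sums were 420.2, 2039 and 1312. The ileal sums fell in 2 separate ranges of 5 mice, so no correlation with them is given. A limma fit with the log2 ileal sum as a covariate, added after the data were seen, rests on the same ranges. It called 0 of the 8 genes, beside 0.021% of all genes tested. The log2 fold change then was 0.03 for both Cftr and Slc26a3 (0.11 for each without the covariate), 0.15 for Slc9a2, −0.17 for Slc26a6 and 0.27 for Atp1b1.

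**Figure D4:**
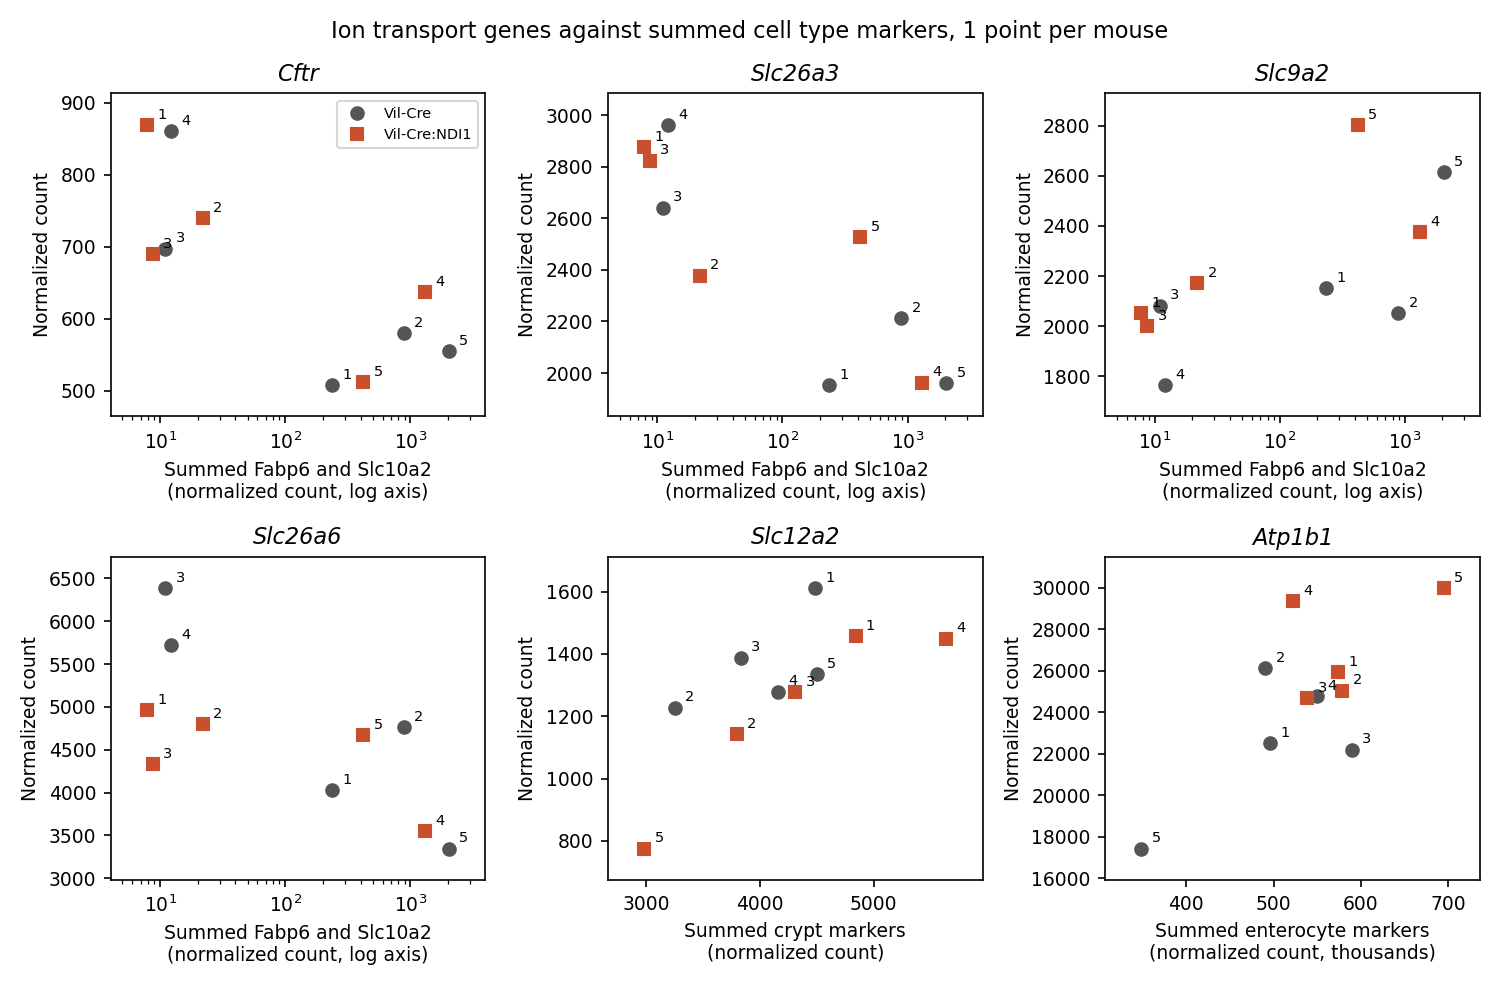
Normalized count of 6 ion transport genes (y axes, not starting at 0) against summed markers in the same mouse, with Vil-Cre mice as grey circles and Vil-Cre:NDI1 mice as orange squares, numbered by replicate. The x axis is the sum of the ileal markers Fabp6 and Slc10a2 on a log scale for Cftr, Slc26a3, Slc9a2 and Slc26a6, the sum of 7 crypt markers for Slc12a2 and the sum of 10 enterocyte markers for Atp1b1. The 5 mice with ileal sums up to 21.9 hold the 5 highest Cftr values, and Vil-Cre:NDI1 5 is lowest for both Slc12a2 (775) and crypt markers (2984). The share of all genes that divide the mice as Cftr does was not computed.

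Promoter sequences from RefSeq (GRCm38.p6) were held for 5 of the 8 genes, Slc26a3, Slc26a6, Cftr, Slc9a3 and Atp1b1. The 250 bases before the RefSeq start are printed for Slc26a3, Cftr and Slc26a6, because these genes shared several of their high mice. They lie at chr12:31437969-31438218, chr6:18170437-18170686 and chr9:108853793-108854042, all on the plus strand. The Slc26a3 and Slc26a6 windows fall inside the longer gene spans given above. Capitals mark matches on either strand to motifs that were chosen after the sequences had been seen. The box that positions the start of transcription in some promoters was searched as TATAAA. The motif of SP family factors was searched as GGGCGG. One arm of the site of HNF1, a factor of gut epithelium, was searched as GTTAAT. A site of the type bound by HNF4 was searched as CAAAGGTCA.
Slc26a3: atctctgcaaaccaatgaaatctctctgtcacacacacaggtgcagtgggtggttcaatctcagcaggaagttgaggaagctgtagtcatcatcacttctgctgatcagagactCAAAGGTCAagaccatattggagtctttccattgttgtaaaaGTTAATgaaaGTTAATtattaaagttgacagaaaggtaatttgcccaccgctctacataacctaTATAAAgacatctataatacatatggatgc
Cftr: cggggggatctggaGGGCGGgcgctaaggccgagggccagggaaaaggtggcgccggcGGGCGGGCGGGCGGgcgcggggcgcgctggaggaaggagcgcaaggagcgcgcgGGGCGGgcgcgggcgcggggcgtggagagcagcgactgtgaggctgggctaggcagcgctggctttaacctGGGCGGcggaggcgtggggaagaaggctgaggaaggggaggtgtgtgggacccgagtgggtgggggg
Slc26a6: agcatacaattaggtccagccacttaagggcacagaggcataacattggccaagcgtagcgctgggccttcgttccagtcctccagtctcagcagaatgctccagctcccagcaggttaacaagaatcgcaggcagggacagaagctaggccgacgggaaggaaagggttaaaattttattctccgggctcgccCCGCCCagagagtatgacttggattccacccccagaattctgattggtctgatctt

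The promoters had different letters. The Slc26a3 window held TATAAA from position −30, counted back from −1 just before the start. It also held GTTAAT from −94 and again from −84, and CAAAGGTCA from −136, and its GC content was 38.8%. In the Cftr window GGGCGG occurred 6 times, and the GC content was 76.4%. Of these matches, 3 lay in a row (from −192, −188 and −184), each overlapping the next. Slc26a6 held GGGCGG in 1 place, on the minus strand, with a GC content of 53.2%. Slc9a3 and Atp1b1, not printed, held GGGCGG 3 times and 2 times, and the other motifs did not occur in their windows or in those of Cftr and Slc26a6. Over 32851 mouse promoters of the same length, TATAAA occurred in 12.4%, GGGCGG in 32.7%, GTTAAT in 6.43% and CAAAGGTCA in 0.426%. These matches describe letters only.

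For each gene, the genes with the most similar pattern over the 10 mice were found among 14300 by the root mean square difference of their centred log2 values. The nearest to Slc9a3 was Adgrg7 (0.056), and the nearest to Atp1b1 were Lurap1l (0.066) and Mep1b (0.072), which encodes a subunit of the brush-border protease meprin. Slc9a2 had Gramd4 (0.085) and Uqcc2 (0.089), Slc26a3 had Zfp35 (0.076) and Gzf1 (0.084), and Slc26a6 had Sord (0.090) and Aamdc (0.091). Slc12a2 had Sft2d3 (0.083) and Mmrn2 (0.087), and Slc9a3 had Tnfsf10 (0.11) as its second. Cftr had Ccdc59 (0.11) and 1810032O08Rik (0.13). For Kcnq1 the nearest, Dus4l (0.23) and Cep89 (0.23), were farther away than for any of the other 7 genes. Kcnq1 itself varied more, with a root mean square of 0.44 for its own centred values, against 0.19 to 0.27 for those 7. The distances therefore do not rank the genes by how closely they were followed, and no baseline for them was computed.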

How the data were processed

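RNA of the jejunum was sequenced in 5 mice per genotype. The authors used trimGalore! for trimming, STAR for alignment to GRCm38 plus the NDI1 sequence, and Salmon for quantification. The deposited values are a signal, normalized counts, which the authors made by dividing counts by DESeq2 size factors. The annotation release and the use of strand are not given in the sources used here. In each library 100% of values were whole multiples, within 0.01, of the value of 1 read. For Vil-Cre 3 and 4 that value is too near 1 to tell this from rounding. Lengths came from GENCODE M21 and 0 sample columns were left unused.

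Genotypes were compared with limma 3.58.1 on log2(value + 1) over genes at 10 or more in at least 5 mice, letting the variance follow a trend with level and adjusting p by Benjamini-Hochberg. Two-sided exact permutation tests used every assignment of the mice to genotypes, and the smallest p they allow is 0.00794. edgeR 4.0.16 and DESeq2 1.42.0 served as alternatives on the recovered reads. Within each genotype no library repeated another, since the chi-square per gene between replicates was 13.2 to 61.9. Libraries of different genotypes were not compared in this way. Named genes are the members, NDI1, partners chosen by known role, genes of the wider list that passed a threshold and the 2 nearest genes in pattern. The members and lists were chosen with earlier results of these data known. A few partner genes that the rule takes are not reported here.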

Additional observations from a re-analysis of the deposited data

Results flagged for a closer look

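The normalized count of Pdzk1, a brush-border scaffold gene, was 7068 in Vil-Cre:NDI1 5, while the other 4 mice of its genotype lay between 4394 and 4745. It stood 0.869 of the group's range from the nearest mouse, above the Dixon limit of 0.71 for 5 samples. The same mouse had the highest Slc9a2 and Atp1b1 values and the lowest Slc12a2 value of the 10. NDI1 in Vil-Cre 3 was the other value past this limit, at 1.00 normalized count, or 1 read, with 0 reads in the other 4 Vil-Cre libraries. It is below the 3 reads that a count of 0 allows. Of 58 groups of 5 values examined, 2 passed the limit, and chance gives about 2.9.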

How the results depend on the processing

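Across the settings tried, 0 of the 8 ion transport genes were called. Over all genes, limma called 1 gene, 2 with a filter of 50, 3 with the ileal sum as covariate (added after seeing the data) and 1 to 3 with a mouse left out (2 without Vil-Cre:NDI1 1, 3 without Vil-Cre:NDI1 5). DESeq2 called 31 (16 higher, 15 lower), and 276 (152 higher, 124 lower) without Vil-Cre 3 and 4, an alternative added after seeing the data, with 3 of the wider list among them. At an unadjusted p under 0.05 that DESeq2 setting had 3 of the 8, Slc26a3 (0.0236), Cftr (0.0351) and Atp1b1 (0.0433), beside 12% of mouse genes. Vil-Cre 3 and 4 were the controls with low ileal sums and had the 2 highest Cftr and Slc26a3 values of their genotype. The sign of small fold changes turned in places, and the cause was not tested. With edgeR on these 8 libraries the log2 fold change was −0.015 for Slc9a2, 0.032 for Slc9a3, 0.13 for Slc26a6 and 0.027 for Kcnq1, and with DESeq2 it was 0.050, 0.14 and 0.044 for the last 3. With a mouse left out it ran from −0.18 to 0.019 for Slc9a3 (without Vil-Cre 4), −0.21 to 0.018 for Slc26a6 (without Vil-Cre 3) and −0.31 to 0.079 for Kcnq1 (without Vil-Cre 4, and 0.033 without Vil-Cre:NDI1 5). With the longest coding transcript as length, levels per kb were 9617 for Atp1b1, 1068 for Slc26a6, 835 for Slc26a3, 439.7 for Slc9a2, 199 for Slc12a2 and 105 for Cftr. Rescaling libraries to equal totals moved the median of all genes to −0.06 and turned none of the 8. Same-numbered mice did not deviate together (correlations −0.12 to 0.14), and the replicate block left 1 gene called and 0 of the 8, with a log2 fold change of 0.26 for Atp1b1 (p = 0.126, limma).

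Counting error is small beside the spread between mice, since the lowest count of any of the 8 genes in a library was 278 reads (Kcnq1).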
